A study of Mus musculus with 2 samples.

Results

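Most proteins of the mitochondrial ribosome are encoded by nuclear genes whose mouse symbols begin with Mrpl or Mrps. The autosomal protein-coding genes with such a symbol followed by a digit were taken from the GENCODE annotation of mm10 (GRCm38). This gave 78 genes of 20807 autosomal protein-coding genes, 49 named Mrpl and 29 named Mrps, on 17 chromosomes. Their promoters were examined in DNase-seq data from thymus, the organ in which T cells mature. The libraries came from 2 female B6CASTF1/J mice aged 36 days, 1 library each, and nothing was compared between groups. B6CASTF1/J animals are first-generation hybrids of a C57BL/6J and a CAST/EiJ parent, so each mouse carries 1 chromosome set of each strain, whereas positions and sequences here are those of the C57BL/6J reference. The labels number the animals as separate biological replicates, called mouse 1 and mouse 2 here, but list 1 donor identifier for both. The spread between them therefore measures these 2 libraries, and no test was made.

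Mitochondrial ribosomes translate the few proteins that mitochondrial DNA encodes, all of them membrane subunits of the oxidative phosphorylation complexes. The ribosomal RNAs come from mitochondrial DNA, but every ribosomal protein is made in the cytosol and imported. The small subunit reads the messenger RNA and the large subunit forms the peptide bond; some of the proteins have bacterial relatives and others are found only in mitochondria. Promoters of nuclear genes for mitochondrial proteins are known for binding sites of NRF1, of the ETS-family factor GABP (also called NRF-2) and of YY1. DNase I cuts DNA that is not wrapped around nucleosomes, a peak marks a stretch cut often, and a footprint is a short protected run inside such a stretch, as a bound protein leaves.

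All 78 genes were open at a promoter in both animals, that is, a peak overlapped the 1 kb on either side of an annotated transcript start. Among all autosomal protein-coding genes the share was 57.7% in mouse 1, 63.9% in mouse 2 and 57.3% in both. The 11929 genes with a promoter peak in both mice are called open genes below and are the background for everything that follows. Within 1 kb of the main transcript start alone, 53.4% of autosomal protein-coding genes and all 78 members had a peak in both mice. Some open genes thus have peaks only at another start in a mouse, which lowers the open-gene shares of peaks around the main start. Their part in the shares of footprints and cut-rate runs was not tested. The strongest promoter peak lay over the main transcript start in 63 members in mouse 1 and 62 in mouse 2, or 80.8% and 79.5%, beside 58.6% and 60.6% of open genes. With 1 kb around the 5′ end of the gene record alone, 2 members had no peak in either mouse: Mrps24 and Mrpl35, whose main starts lie inside the gene record.

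The tissue label was checked with marker genes. All 12 thymocyte genes tested, among them Cd3e, Cd4, Cd8a and Rag1, had a promoter peak in both mice, as did 1 of 4 myeloid, 2 of 5 thymic epithelium and 3 of 4 endothelial or mesenchymal genes, and 0 of 3 liver genes. Among those without a peak in both mice were Csf1r, which marks macrophages, and Foxn1, which marks thymic epithelium. Of the endothelial or mesenchymal genes Kdr, Pdgfra and Col1a1 had one and Cdh5 did not. In bulk tissue fewer cells of a type and less signal per cell cannot be told apart, and the part of each cell type in the values below was not tested. The peak lists held 59484 peaks in mouse 1 and 72913 in mouse 2.

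Openness was concentrated at the main start. In 20 bp bins, at most 89.4% of members were covered by a peak in mouse 1, at 30 bp before the start, and at most 86.3% in mouse 2, at 30 bp after it. The corresponding maxima for open genes, some of which have no peak at the main start, were 71.0% and 73.3%. At 490 bp after the start the order was the other way round, with 15.1% and 8.46% of members covered but 22.2% and 20.02% of open genes. Members had a single promoter peak more often, 45 of 78 in mouse 1 and 54 in mouse 2, or 57.7% and 69.2%, beside 36.8% and 37.5% of open genes. Members also had fewer annotated starts, with a median of 4 against 5, and a shorter summed window, 2609.5 against 4338 bp. With 1 window of equal length at the main start of each gene the shares with 1 peak were 61.5% and 73.1% for members and 39.1% and 42.6% for open genes. Open genes with no peak in that window count among the rest.

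**Figure D1:**
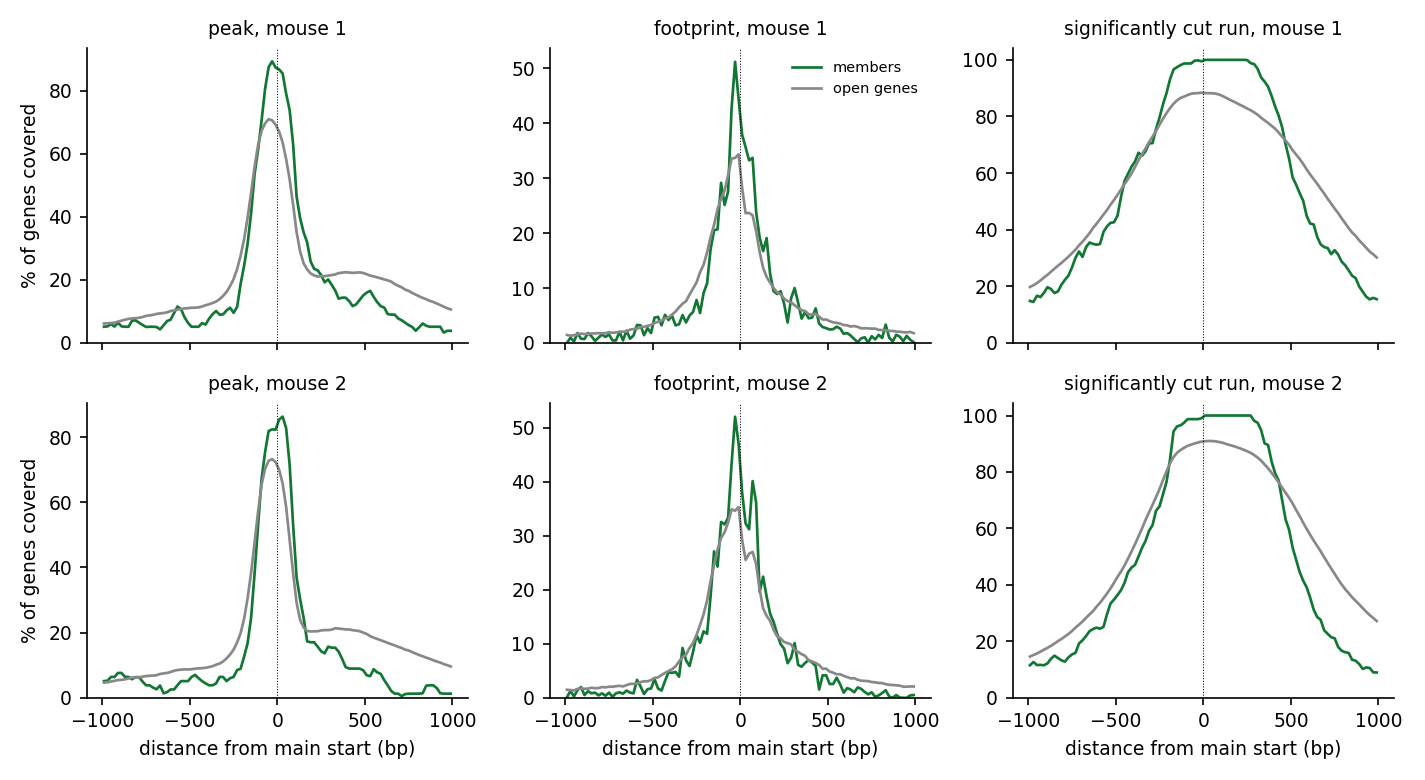
Share of genes covered by a peak, a footprint or a significantly cut run in 20 bp bins, by distance from the main transcript start (bp, gene strand), for 78 members and 11929 open genes. Members are covered more often in the bins 30 bp before and 70 bp after the start and less often at 490 bp downstream, in both mice.

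The footprints and the cut-rate runs had a similar profile, though not in every bin. At 70 bp before the start a footprint covered 27.6% of members and 30.5% of open genes in mouse 1. In mouse 2 the shares there were 33.3% and 32.4%. A footprint covered 51.2% of members in mouse 1 and 52.1% in mouse 2 in the bin 30 bp before the start, beside 33.7% and 34.6% of open genes. At 70 bp after the start a footprint covered 33.7% of members in mouse 1 and 40.1% in mouse 2, beside 23.3% and 27.0% of open genes. Runs with a significant local cut rate (FDR under 0.05) covered all members from 10 to 230 bp after the start in mouse 1 and from 10 to 270 bp in mouse 2, and at most 88.4% and 91.0% of open genes at any distance.

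The sequence under this open stretch was searched from 250 bases before to 50 after the main start, on both strands, for 12 short motifs. The ETS motif CCGGAAG occurred in 29 members, 37.2%, beside 18.0% of open genes and 2.28% of the 7422 genes with no promoter peak in either mouse. The YY1 motif AANATGGCG occurred in 12 members, 15.4%, beside 4.84% and 0.512%. The NRF1 motif GCGCNTGCG occurred in 16 members, 20.5%, beside 13.9% and 1.02%. At least 1 of these 3 motifs was present in 45 members, 57.7%, and in 32.3% of open genes, and ETS and NRF1 stood together in 6 members: Mrpl17, Mrpl22, Mrpl43, Mrpl57, Mrps21 and Mrps26. A match says only that the letters are there.

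The ETS sites are shown first because this motif lay furthest above the open genes in percentage points. These are the 4 members with the strongest promoter signal among those whose site lay under a footprint in both mice, printed 5′ to 3′ on the gene's strand (mm10), with the match in capitals.
Mrpl17 (chr7:105811307-105811336, minus strand): ggcatgctccgcCCGGAAGgcgcctcctcc
Mrps18b (chr17:35916380-35916409, minus strand): tgcgcagtcgctCTTCCGGcaggccgtacg
Mrpl18 (chr17:12916314-12916343, minus strand): aaactgaaaacgCCGGAAGtagggggctgc
Mrpl34 (chr8:71464878-71464907, plus strand): aactacagctcCCGGAAGgccccgcggcaa
In Mrps18b the match reads on the opposite strand. Counted from the main start, with negative values upstream, the match centres lay at -222 in Mrpl17, -5 in Mrps18b, 17 in Mrpl18 and -67 in Mrpl34.

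Of 33 ETS sites in the members' windows, 27 lay under a footprint in mouse 1 and 26 in mouse 2, or 81.8% and 78.8%, beside 63.7% and 61.7% of 2527 sites in the other open genes. In both mice the share was 72.7% against 54.2%. The members' ETS sites also lay nearer the start: 90.9% within 60 bases, against 64.4% in the other genes, where footprints are densest in general. The part of this position in the footprint share was not tested. Mrpl43, Mrpl52 and Mrpl58 held 2 ETS sites each, and all 6 of those sites lay under a footprint in both mice. Mrpl58 (also called ICT1) encodes a peptidyl-tRNA hydrolase that is also part of the large subunit. Mrps34 held 1 site with a footprint in both mice and 1 with none.

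The same 7 letters were not always covered. Of the members' ETS sites, 4 lay under no footprint in either mouse, and they are shown for contrast.
Mrpl38 (chr11:116138993-116139022, minus strand): tccaacaggcatCTTCCGGgcccgcactat
Mrps22 (chr9:98601673-98601702, minus strand): aaacctctcgagCCGGAAGttgctctatcg
Mrps34 (chr17:24895058-24895087, plus strand): cgttcctgaagCTTCCGGacgtacccggat
Mrpl53 (chr6:83109038-83109067, plus strand): ccgcggagccgCCGGAAGcggtccgttcca
Mrps34 and Mrpl53 were among the members with low promoter signal, at 1.99 and 1.41 in mouse 1 and 3.57 and 3.16 in mouse 2. Mrpl38, at 6.03 and 9.53, was near the middle of the list. That no footprint was listed at these letters says nothing on whether a protein binds there.

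NRF1 matches were covered almost throughout. Of 19 NRF1 sites, overlapping matches merged, 18 lay under a footprint in mouse 1 and 18 in mouse 2, or 94.7%, beside 87.2% and 88.7% of 1995 sites in other open genes. Members therefore did not stand far from the background in this respect. Mrpl45 and Mrpl17 had more than 1 site. Mrpl45, whose protein anchors the large subunit at the inner membrane, had 3, centred at -115, -33 and 19 bases from the start, and all were footprinted in both mice. The 140 bases before its start show the 2 upstream sites.
Mrpl45 (chr11:97315576-97315715, plus strand): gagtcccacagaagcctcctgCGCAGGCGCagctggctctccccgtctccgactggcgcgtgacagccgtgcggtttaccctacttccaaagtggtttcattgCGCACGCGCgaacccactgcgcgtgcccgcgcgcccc
Mrpl9 carried a palindromic site ending at the base before the start, which matches the motif on both strands.
Mrpl9 (chr3:94443258-94443317, plus strand): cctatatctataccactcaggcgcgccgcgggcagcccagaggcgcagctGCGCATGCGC
The corresponding sites around the starts of Mrps9 and Mrpl32 are these.
Mrps9 (chr1:42851218-42851247, plus strand): tgggaggtctGCGCCTGCGcagtctccagg
Mrpl32 (chr13:14613106-14613135, minus strand): ctttgacccttGCGCATGCGcaagaggggc

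Mrpl17, the member with the highest mean signal, combined the motifs. The 250 bases before its start held an ETS site, an SP/KLF site (GGGCGGG, here as its reverse complement) and an NRF1 site, in that order, and another NRF1 site lay just after the start.
Mrpl17 (chr7:105811100-105811349, minus strand): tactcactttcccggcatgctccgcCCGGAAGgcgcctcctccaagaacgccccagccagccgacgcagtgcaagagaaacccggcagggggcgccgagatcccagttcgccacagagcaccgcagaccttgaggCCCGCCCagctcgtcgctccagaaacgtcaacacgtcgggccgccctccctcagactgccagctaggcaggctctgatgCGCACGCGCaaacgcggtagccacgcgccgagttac
Mrpl17 (chr7:105811080-105811109, minus strand): gccgagttactGCGCATGCGtcctctgaga
All 4 of these sites lay under footprints in both mice.

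Most YY1 matches lay just after the start. Of 12 matches, 9 read on the gene's strand with their centre 18 to 36 bases after the start. The others read on the opposite strand before the start, centred at -92 in Mrps11, -68 in Mrpl36 and -59 in Mrps7. In the other open genes 33.8% of 591 matches read on that strand 10 to 40 bases after the start. The letters contain an ATG, and in 7 of the 12 this ATG was an annotated start codon on the gene's strand, 58.3% beside 26.7% elsewhere: Mrpl27, Mrpl58, Mrps10, Mrps18a, Mrps24, Mrps27 and Mrps30. With start codons on either strand counted, the number was 10, 83.3% beside 33.3% elsewhere, and Mrpl36, Mrps11 and Mrps7 were added. The motif and the first codons of a protein cannot be told apart at these 10 matches. The sites printed here had a footprint in both mice. Mrps27 and Mrps30 are among the 7 genes with the start codon on their own strand. Mrps7 is counted only through a start codon on the opposite strand, and Mrpl37 is not among the 10.
Mrps27 (chr13:99344790-99344819, plus strand): ggtgcgctccAAGATGGCGgctcccatggt
Mrpl37 (chr4:107066822-107066851, minus strand): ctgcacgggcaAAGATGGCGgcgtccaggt
Mrps30 (chr13:118387219-118387248, minus strand): cgcggcgggcgAAAATGGCGgcggccaggt
Mrps7 (chr11:115603852-115603881, plus strand): cttccgcctcCGCCATATTgcagccgcccg
Of the 12 matches, 8 lay under a footprint in each mouse and 7 in both, 58.3%, beside 53.7% elsewhere, which is close to the background. Mrps30 and Mrps18a carry small-subunit symbols, although their proteins sit in the large subunit.

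Among the rarer motifs, ZNF143 (TACAANTCC) occurred in 5 members, 6.41%, beside 3.03% of open genes, and CREB/ATF (TGACGTCA) in 2, 2.56%, beside 3.72%. The 95% Clopper-Pearson interval of the members' ZNF143 share, 2.11 to 14.3%, contains the open-gene share. Sites of both kinds with a footprint in both mice are shown because they fall in Mrpl34, Mrpl49 and other members without an NRF1 match.
Mrpl34 (chr8:71464715-71464744, plus strand): ggcgaagaacTACAACTCCcagaaggccag
Mrpl19 (chr6:81965940-81965969, minus strand): actgacttctgGGAGTTGTAgtccttcatt
Mrpl42 (chr10:95501974-95502003, minus strand): ctggcagagacTACAACTCCcagagtgcct
Mrpl49 (chr19:6057891-6057920, minus strand): cctgctgcgtgTGACGTCActgcagcgcga
Mrpl16 (chr19:11770355-11770384, plus strand): gtgggacaggaTGACGTCActtcctgtctt
SP/KLF occurred in 31 members, 39.7%, beside 47.4%. The NF-Y motif CCAATNAG was in 8.97% of members beside 10.03%, and the E-box CACGTG in 5.13% beside 10.2%. For RFX the motif was GTTGCCA, in 2.56% beside 4.08%. RUNX, searched as TGTGGTT, was in 6 members, 7.69% beside 4.00%. The letters TATAAA of the core promoter box were in 7, 8.97% beside 6.83%. The 95% Clopper-Pearson intervals of these 2 members' shares, 2.88 to 16.0% and 3.68 to 17.6%, contain the open-gene shares. Of the sites, 5 of 6 for RUNX and 6 of 7 for TATAAA lay under no footprint in either mouse. Within 60 bases of the start lay 0 RUNX sites and 1 TATAAA site. The ERR motif TCAAGGTCA was in 0 of 78 windows and in 0.310% of open genes. The windows of members held a median of 57.5% G + C, those of open genes 60.3%.

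**Figure D2:**
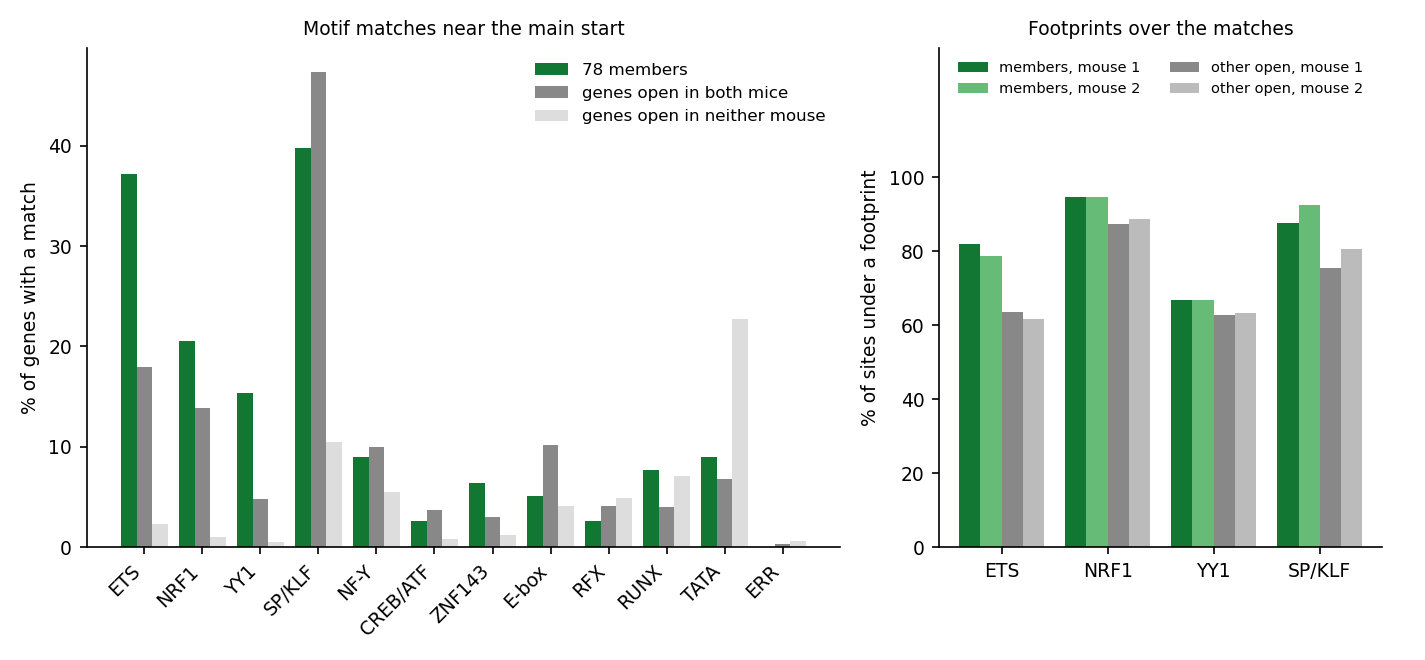
Left, percentage of genes with at least 1 match from 250 bases before to 50 after the main start, for 78 members, genes open in both mice and genes open in neither. Right, percentage of sites under a footprint in each mouse; ETS sites of members are covered in 81.8% and 78.8%, those of other open genes in 63.7% and 61.7%.

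The strength of the promoter peaks spanned a wide range, but its middle was that of open genes at large. The signal deposited for each peak is a height normalised to read depth, and the strongest peak stands for each promoter. The members' median was 5.52 in mouse 1 and 13.0 in mouse 2, a mean of 9.24 ± 5.26 (SD, n = 2), beside 5.09 and 12.5 for open genes. In mouse 1, 40 of 78 members were above the median of open genes, and in mouse 2, 39. The lower and upper quartiles of members were 2.89 and 9.15 in mouse 1 and 6.90 and 21.4 in mouse 2, those of open genes 2.36 and 9.34 and 5.59 and 22.2. With the peaks at the main start alone, the members' medians were 5.08 and 12.4, beside 5.09 and 12.7 for genes open there. With the sum of the promoter peaks they were 5.91 and 14.7, beside 6.89 and 15.9. Under these settings members were below the background in both mice.

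**Figure D3:**
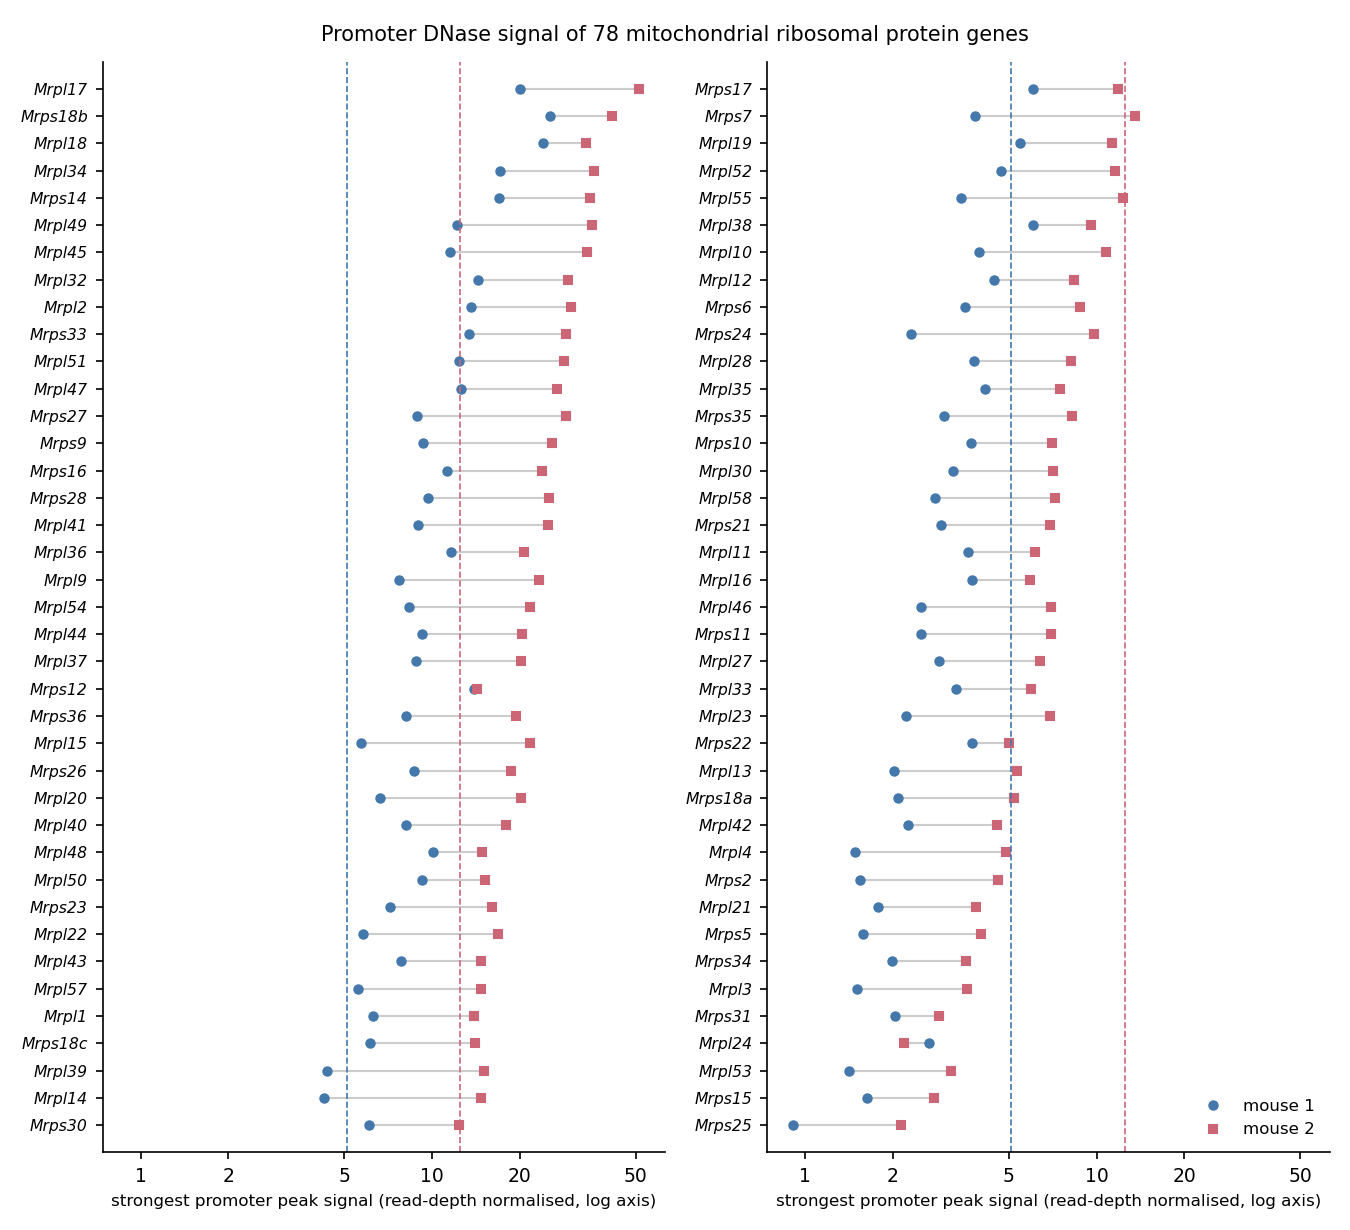
Signal of the strongest promoter peak (log axis) of each member in mouse 1 (circles) and mouse 2 (squares), ordered by the mean of both; dashed lines are the medians of open genes, 5.09 and 12.5. Mrpl17 and Mrps18b lead, and Mrps25 is lowest.

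The 6 highest members by mean signal were Mrpl17, Mrps18b, Mrpl18, Mrpl34, Mrps14 and Mrpl49. Mrpl17, a large-subunit protein with a bacterial relative, had 20.1 in mouse 1 and 51.5 in mouse 2, from peaks at chr7:105811001-105811380 and chr7:105811001-105811320 that cover its start. In mouse 2 it exceeded 99.1% of open genes, and in mouse 1 96.3%. Mrps18b, 1 of 3 genes related to bacterial S18, had 25.4 and 41.3, but its strongest peak was centred at -431.5 and -441.5 bp from its start, towards the divergent gene Ppp1r10. Mrpl18 had 24.0 and 33.8. Mrpl34 had 17.1 and 36.0, Mrps14 16.9 and 34.9, and Mrpl49 12.2 and 35.5. Mrps18b was highest in mouse 1 and Mrpl17 in mouse 2, so the top place differed between the mice.

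At the other end stood Mrps25, Mrps15, Mrpl53, Mrpl24, Mrps31 and Mrpl3. Mrps25, a small-subunit protein found only in mitochondria, had 0.906 in mouse 1 and 2.13 in mouse 2, at chr6:92183941-92184120 and chr6:92183921-92184140, over its start. Only 8.5% and 9.0% of open genes were lower. These values were 142 and 423 of the smallest steps by which signals of each library differ. Mrps15 had 1.63 and 2.76, Mrpl53 1.41 and 3.16, and Mrps31 2.04 and 2.88. Mrpl3, which lies near the peptide-forming centre, had 1.5 and 3.60. Mrpl24 had 2.67 and 2.18 and was the only member lower in mouse 2. None of the 12 motifs was found in the 250 bases before the start of Mrps25.
Mrps25 (chr6:92184034-92184283, minus strand): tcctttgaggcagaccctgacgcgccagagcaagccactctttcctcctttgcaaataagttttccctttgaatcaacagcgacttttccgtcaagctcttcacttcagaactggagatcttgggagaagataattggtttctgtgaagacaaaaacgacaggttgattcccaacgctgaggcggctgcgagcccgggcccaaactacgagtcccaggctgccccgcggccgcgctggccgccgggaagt

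The middle of the list was held by Mrps30 with 6.06 and 12.4, Mrps17 with 6.06 and 11.9, and Mrps7 with 3.82 and 13.6. The order of the members was similar in both mice: across the 78 genes Pearson's r of the log2 signals was 0.93 and Spearman's rho 0.94, and across open genes 0.93 and 0.93. These are descriptions over genes that share 2 libraries. In 3 members the strongest promoter peak of a mouse was more than 1 kb from the main start. That of Mrpl48 was centred at -24358.5 and -24438.5 bp, near the 5′ end of the gene record, with 10.1 and 14.8, while its main start had 2.77 and 7.24. That of Mrpl33 was centred at -17098.5 bp in mouse 2, and that of Mrpl58 at 5008.5 bp in mouse 1.

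Many members shared a promoter with a neighbour. In 23 members, 29.5%, a protein-coding gene on the opposite strand started within 1 kb upstream and pointed away, beside 12.1% of open genes. Within 500 bp the numbers were 22 members, 28.2%, and 10.7%. The median distance between the starts was 81 bp in members and 145.5 bp in open genes. Of the 23 members, 22 had the same strongest peak as their neighbour in each mouse, so the signal of the member and that of its neighbour cannot be told apart. The exception was Mrps5, with 1.58 and 4.01, whose neighbour Zfp661 had 6.57 and 13.7.

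The nearest starts were 26 bp apart, in Mrpl54 and Apba3. Mrps18c and Helq, a DNA helicase, and Mrps34 and Eme2, an endonuclease subunit, were 29 bp apart. Mrpl46 and Mrps11 were 30 bp apart and were the only members that neighbour each other within 100 kb. They encode a large- and a small-subunit protein, and their common peak had 2.50 in mouse 1 and 6.96 in mouse 2. Mrpl18 lay 37 bp from Tcp1, a subunit of the cytosolic chaperonin. Mrpl49 lay 59 bp from Fau, which encodes a protein of the cytosolic ribosome, Mrpl14 63 bp from Tmem63b, Mrpl30 66 bp from Mitd1 and Mrpl57 71 bp from the kinetochore gene Ska3. Mrpl32 lay 75 bp from the proteasome gene Psma2. Some pairs farther apart are named for a neighbour with a mitochondrial product, after the values were seen. Mrps27 stood 81 bp from Ptcd2, a pentatricopeptide repeat gene, Mrpl43 stood 116 bp from Twnk, the helicase of mitochondrial DNA, and Mrps12 stood 182 bp from Sars2, the mitochondrial seryl-tRNA synthetase.

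A further 8 members, 10.3% beside 4.69% of open genes, had a neighbour whose start lay just inside them on the opposite strand. Mrpl36 overlapped Ndufs6 in this way by 29 bp and Mrpl47 overlapped Ndufb5 by 157 bp; both neighbours are complex I genes. Divergent promoters had the stronger peaks. The 23 members with such a neighbour had medians of 8.31 and 15.1 in the 2 mice, whereas the other 55 had 4.12 and 9.76. Open genes showed the same order, 8.66 and 19.6 with a neighbour and 4.66 and 11.5 without. ETS matches were also commoner in open genes with a divergent neighbour, 29.4% against 16.4%. In members the shares were 39.1% with and 36.4% without, so members without a neighbour were above the background as well. NRF1 matches were in 22.5% of open genes with a divergent neighbour and 12.7% without, and in 26.1% and 18.2% of members.

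**Figure D4:**
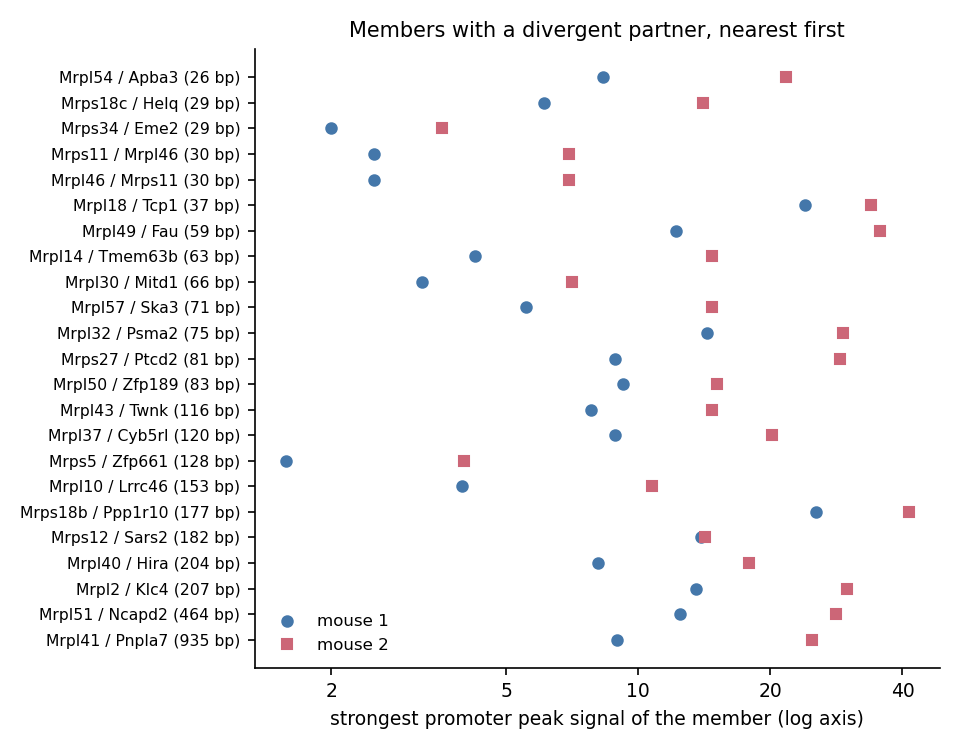
Signal of the strongest promoter peak (log axis) of the 23 members with a divergent neighbour, in mouse 1 (circles) and mouse 2 (squares), with the distance between the starts in parentheses. Distances run from 26 to 935 bp, and Mrpl46 and Mrps11 appear with the same values because they share a peak.

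Signals were higher in mouse 2 in 77 of 78 members and in 97.1% of open genes. The median log2 ratio of mouse 2 to mouse 1 was 1.16 in members and 1.27 in open genes, so this is a difference between the libraries as a whole. The ratio was highest in Mrps24, at 2.09 (2.30 in mouse 1, 9.76 in mouse 2), followed by Mrpl15 at 1.93, Mrpl55 at 1.85 and Mrps7 at 1.83. It was lowest in Mrpl24 at -0.29, Mrps12 at 0.03, Mrps22 at 0.42 and Mrpl18 at 0.49. Mrps12, whose bacterial relative S12 guards decoding accuracy, had 13.9 and 14.2. It exceeded 88.5% of open genes in mouse 1 and 55.2% in mouse 2.

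The ratio moved with base composition. Across the members Pearson's r between the log2 ratio and the G + C share of the strongest peak in mouse 2 was 0.67 (n = 78), and across open genes it was 0.67, from genes measured in the same 2 libraries. Open genes were put in 5 ranges of G + C of about equal size. In the lowest, up to 59.5%, the median log2 ratio was 0.68, and in the 15 members of that range 0.85. In the highest, from 72.1%, it was 1.67 in open genes and 1.64 in 7 members. Members therefore followed the open genes in each range. The part of G + C in the ratio of a single gene was not tested.

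**Figure D5:**
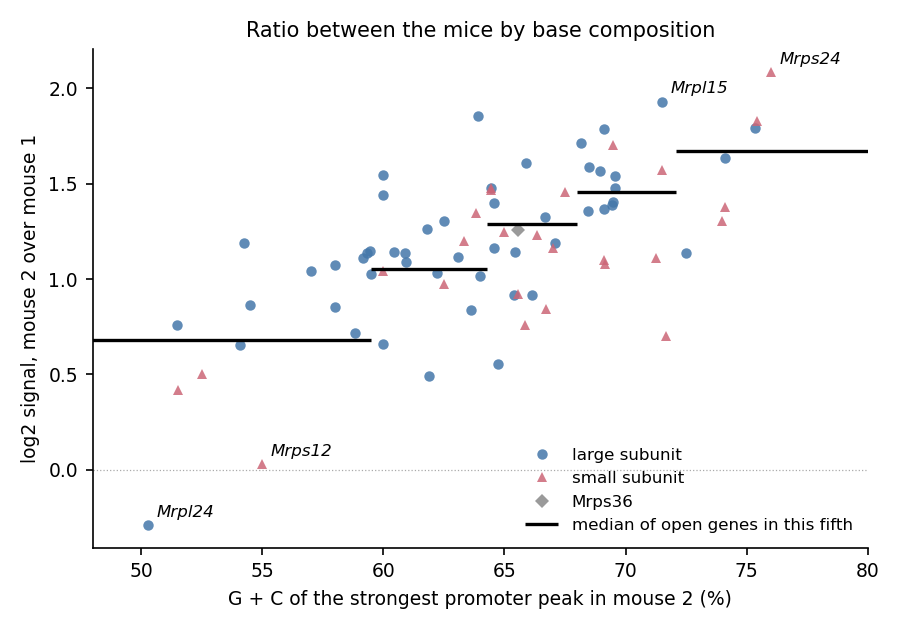
Log2 ratio of the signal in mouse 2 to that in mouse 1 against the G + C share of the strongest promoter peak in mouse 2 (%), for large-subunit members (circles), small-subunit members (triangles) and Mrps36 (diamond). Bars are the medians of open genes in 5 ranges of G + C and rise from 0.68 to 1.67; the members lie around them.

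The number of footprints per promoter window had a median of 9 in mouse 1 and 10 in mouse 2 for members, and 11 and 12 for open genes with their longer windows. In windows of equal length at the main start the medians were 9 and 9.5 for members and 10 and 10 for open genes. Mrpl48 had the most, 29 in mouse 1 and 38 in mouse 2, over the windows of its distant starts. Mrpl40 had 22 and 26, Mrps18b 20 and 23, and Mrpl33 17 and 25. The fewest were 3 and 8 at the promoter shared by Mrpl46 and Mrps11, 4 and 7 in Mrps31 and 6 and 5 in Mrpl42. Every member had at least 3 footprints in mouse 1 and 4 in mouse 2.

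Of the members' 822 footprints in mouse 1, 570 overlapped a footprint of mouse 2, 69.3%, and of 867 in mouse 2, 554 overlapped one of mouse 1, 63.9%. The shares in open genes were 65.8% and 59.2%. The mean for members was 66.6% ± 3.85 (SD, n = 2). Members were above open genes in each mouse, but the members' share in mouse 2 was below that of open genes in mouse 1.

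Significantly cut bases had a median of 1185.5 per member in mouse 1 and 965 in mouse 2, beside 1409 and 1320 in open genes. In windows of equal length the medians were 1105.5 and 930.5 for members and 1257 and 1162 for open genes, so members were lower by this measure also. Mrpl48 had most, 3759 and 3194, followed by Mrpl36 with 3219 and 2096, Mrpl17 with 2142 and 1921 and Mrpl1 with 2234 and 1663. Mouse 1 had more cut bases than mouse 2 in the median, although its peaks were lower.

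Peaks inside the gene away from every annotated start were rare. They occurred in 11 members in mouse 1 and 13 in mouse 2, 14.1% and 16.7%, beside 38.1% and 45.02% of open genes. Members are short, with a median length of 7.90 kb against 24.5 kb. Mrpl58 had 3 such peaks in each mouse, and Mrps27 and Mrpl33 had 2 in mouse 1 and 3 in mouse 2. After them, 5 members had 2 in all: Mrpl1, Mrpl21, Mrpl23, Mrps30 and Mrps33.

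By role, 51 members belong to the large subunit, 26 to the small, and Mrps36 (also named Kgd4) is now known as part of the 2-oxoglutarate dehydrogenase complex. Large-subunit genes had median signals of 5.56 in mouse 1 and 13.9 in mouse 2, small-subunit genes 3.77 and 10.8, and Mrps36 8.11 and 19.4. The ranges overlapped almost wholly, from 1.41 to 24.0 and from 0.906 to 25.4 in mouse 1. NRF1 matches were in 13 large-subunit genes, 25.5%, and 3 small-subunit genes, 11.5%; ETS matches were in 18, 35.3%, and 11, 42.3%. The 47 genes with a bacterial relative had medians of 4.12 and 10.7 and the 30 found only in mitochondria 6.61 and 14.8. A divergent neighbour was present in 11 of the former, 23.4%, and 12 of the latter, 40%. The part of these neighbours in the signals was not tested. These groups were set side by side without a test.

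Other genes of the same process were open as well. All 58 further genes of mitochondrial translation on the lists had a promoter peak in both mice. Their median signal was 5.09 in mouse 1 and 13.8 in mouse 2. By step, the medians were 6.35 and 14.9 for 20 genes that charge transfer RNAs, 4.19 and 12.4 for 16 ribosome assembly genes and 3.65 and 8.43 for 11 translation factors. For 6 genes of mitochondrial transcription and messenger RNA, such as Tfam and Polrmt, they were 8.65 and 21.0. The 5 mitochondrial ribosomal proteins without an Mrp symbol, Dap3, Ptcd3, Aurkaip1, Gadd45gip1 and Chchd1, had 3.09 and 8.95.

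The promoters of the partner machineries were stronger. Of 76 cytosolic ribosomal protein genes, 73 were open in both mice, with medians of 7.92 and 18.3. Of 74 gene records of oxidative phosphorylation, 73 were open, with 7.32 and 15.7. ETS matches were in 31.5% of the open cytosolic ribosomal protein genes, 19.2% of the oxidative phosphorylation genes and 27.6% of the other mitochondrial translation genes, beside 37.2% of members. NRF1 matches were in 11.0%, 27.4% and 20.7%, beside 20.5% of members, and YY1 matches in 9.59%, 5.48% and 12.1%, beside 15.4%. Divergent neighbours were found in 11.0%, 21.9% and 19.0%, beside 29.5%. The 3 cytosolic genes without a peak in both mice were Rpl3l, Rpl10l and Rpl39l, copies used in muscle or testis.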

How the data were processed

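DNase-seq files of 2 thymus libraries were used, aligned to mm10, per the labels. The authors deposited, for both libraries, peaks with a read-depth normalised signal, runs of bases with a p-value for the local cut rate (an FDR, listed only under 0.05), and footprints with 1 constant score, of which only positions were used. Peaks were listed per library, per the text deposited with the files; the sources used here do not name the aligner or callers. Signals were whole multiples of 0.00638 in mouse 1 and 0.00504 in mouse 2. The shorter of 2 peak lists was used (longer: 93107 and 117361 peaks). Genes and starts came from GENCODE M21, sequence from the GRCm38 reference. The main start is the most 5′ start of a principal transcript. Intervals were counted at an overlap of 1 bp with Python 3.11.15, numpy 2.4.6 and pandas 2.3.3, and this was checked on simulated intervals. Intervals of shares used scipy 1.17.1. Named genes are the 6 highest and 6 lowest signals, the 3 nearest the median, the 4 extremes of ratio, footprints (both ends), cut bases and gene-body peaks (highest), and the 10 nearest divergent pairs; members named for motifs or roles were chosen after values were seen. No gene was tested, so no threshold of a test applies. The result of 1 marker list is not reported here. Members, lists and motifs were chosen with earlier results of these data known. Symbols of cytosolic ribosomal protein genes were Rpl or Rps with a number and at most 1 letter, Rplp0 to Rplp2 and Rpsa.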

Additional observations from a re-analysis of the deposited data

How the results depend on the processing

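The main values were recomputed under 49 alternatives other than leaving out a mouse, and 45 stayed within the limits set for them. The limit was 1.5 times for the number of open members, and the SD over members for the ratio. For other medians and the shared footprints it was the SD between mice, and for motif and divergent-neighbour shares the 95% Clopper-Pearson interval. A reversal was defined only as a change of sign of the ratio, and none occurred. The limits did not compare members with open genes. In the main setting the members' signal medians were above those of open genes in both mice. With the main start alone or the summed peaks they were below. The limits were wide for the number of open members and for the signal median, where the SD was 5.26. That SD is the spread between the medians of the 2 libraries, so staying within it is a weak check. All 78 members kept a promoter peak in both mice under every peak list and window tried except the gene 5′ end alone, where 97.4% did. Values that moved were the footprints per promoter, 6 inside the promoter peaks only against 9.5; the cut bases, 867.5 at an FDR of at most 0.001 against 1075.25; the shared footprints, 59.0% at an overlap of at least 50% of the footprint against 66.6%; and the ETS share, 50% with 250 bases on either side of the start against 37.2%, beside 23.2% and 18.0% of open genes. Leaving out 1 mouse of 2 cannot move a mean past their SD, so it is no check of stability. It left a signal median of 5.52 without mouse 2 and 13.0 without mouse 1, against a mean of 9.24. In the same order it gave footprint medians of 9 and 10, and cut-base medians of 1185.5 and 965. The windows at the main start alone were chosen after seeing the data. No paired analysis was possible because both mice belong to 1 group. With 2 libraries, a difference between mice cannot be told from one between libraries. The spread between mice does not measure the error of list medians compared within a mouse, and that error was not estimated. Alleles of the CAST/EiJ parent were not analysed here.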
